A study of Mus musculus with 8 samples.

Results

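Pleiotrophin (Ptn), its relative midkine (Mdk), their receptors Ptprz1 and Alk and the syndecans Sdc1, Sdc2, Sdc3 and Sdc4 were followed as 8 of the 32859 genes of the deposited table, taken by gene symbol. The cells were Clec3b-tdT⁺ primary hepatic portal fibroblasts, sorted by their fluorescent reporter from normal Clec3bCreERT2;R26tdT mice, in which an inducible Cre driven by Clec3b switches the reporter on. Of 8 libraries, 4 came from cells given a lentivirus that overexpresses Klf4 (Lenti-Klf4) and 4 from cells given the control virus (Lenti-Ctrl), so all libraries come from virus-treated cells of the same reporter genotype. The age of the mice, the time after transduction and whether the libraries of a group come from separate mice were not found in the labels. Errors therefore measure the spread between these libraries, which may be technical. The genes were chosen with the Lenti-Klf4 against Lenti-Ctrl contrast in view, so their values in that contrast are given as a description, without p-values.

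Pleiotrophin and midkine are small secreted growth factors that bind heparin and the sulfated sugar chains of proteoglycans. PTPRZ1 is a receptor tyrosine phosphatase that carries chondroitin sulfate, binds both ligands and loses activity when they bind, and ALK is a receptor tyrosine kinase. Syndecans are transmembrane proteins with heparan sulfate chains that hold such growth factors at the cell surface and link the matrix to the cytoskeleton. In the liver, pleiotrophin from mesenchymal cells is known as a growth factor for hepatocytes.

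The proximal promoters are shown first because Klf4 encodes a transcription factor that binds CACCC-type boxes. RefSeq promoters (build GRCm38.p6, 250 bases before to 50 after the start) matched 6 of the 8 genes by symbol. Capitals mark CACCC, or GGGTG where the match is on the other strand, each sequence running 5′ to 3′ along the gene's strand. Ptn is shown as the gene with the largest difference, Sdc1 as the one with the most matches, and Ptprz1 and Sdc3 as the ones with the largest differences towards lower values. Their positions are chr6:36810130-36810429 on the minus strand for Ptn, chr12:8771146-8771445 on the plus strand for Sdc1, chr6:22875252-22875551 on the plus strand for Ptprz1 and chr4:130792287-130792586 on the plus strand for Sdc3.
Ptn: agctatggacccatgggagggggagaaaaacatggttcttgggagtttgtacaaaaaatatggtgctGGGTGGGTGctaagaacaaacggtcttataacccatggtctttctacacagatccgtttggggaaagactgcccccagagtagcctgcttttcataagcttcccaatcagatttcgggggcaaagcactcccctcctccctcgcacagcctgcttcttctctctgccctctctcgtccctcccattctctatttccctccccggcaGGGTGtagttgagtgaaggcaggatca
Sdc1: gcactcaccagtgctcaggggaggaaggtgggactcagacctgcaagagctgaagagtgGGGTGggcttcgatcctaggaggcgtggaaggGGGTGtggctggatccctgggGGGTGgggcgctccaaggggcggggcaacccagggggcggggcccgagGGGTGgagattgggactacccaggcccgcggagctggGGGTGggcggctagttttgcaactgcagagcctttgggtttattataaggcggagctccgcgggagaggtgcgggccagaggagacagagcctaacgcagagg
Ptprz1: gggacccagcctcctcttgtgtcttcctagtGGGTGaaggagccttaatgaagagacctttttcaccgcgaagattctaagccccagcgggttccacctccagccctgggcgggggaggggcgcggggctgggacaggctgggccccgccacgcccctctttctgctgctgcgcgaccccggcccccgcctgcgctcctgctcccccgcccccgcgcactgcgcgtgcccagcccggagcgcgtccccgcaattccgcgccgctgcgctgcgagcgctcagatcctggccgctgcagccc
Sdc3: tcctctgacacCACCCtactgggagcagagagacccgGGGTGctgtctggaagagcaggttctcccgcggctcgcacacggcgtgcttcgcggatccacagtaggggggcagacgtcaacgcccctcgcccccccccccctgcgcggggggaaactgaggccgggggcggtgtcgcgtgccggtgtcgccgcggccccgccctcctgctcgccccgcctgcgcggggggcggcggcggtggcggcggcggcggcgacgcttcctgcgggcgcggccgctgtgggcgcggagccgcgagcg
CACCC was searched on both strands, and overlapping matches were counted. It occurred in 57.5% of the 32851 promoters of the same length, with a median of 1 match. The Ptn window held 3 matches, beginning at -183, -179 and 23 bases from the start, and 9.35% of promoters held at least as many. The Sdc1 window held 5, which 1.02% of promoters reached. Alk, Sdc3 and Sdc4 held 2 each and Ptprz1 held 1. The longer CCCCACCC was found once in Sdc1 and in none of the other 5 windows, against 9.99% of all promoters. The window of Ptn had 6 CG dinucleotides and that of Sdc3 had 44, with a median of 7 over all promoters, and TATAAA was in none of the 6, against 13.6% of promoters. These matches are descriptions of the letters and not binding sites.

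**Figure D1:**
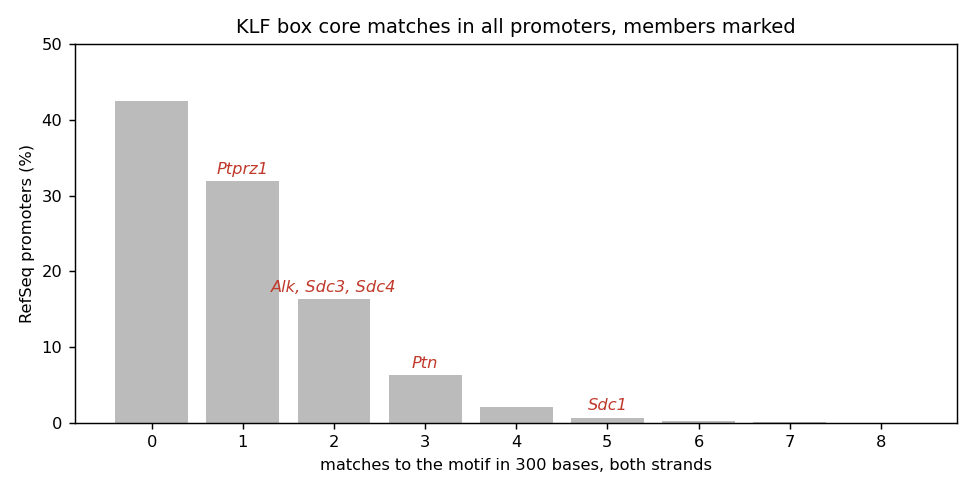
Share of RefSeq promoters (y axis, percent) by the number of CACCC matches on either strand in the 300 bases (x axis, shown up to 8), with the genes placed above their own number. Ptn lies at 3 matches and Sdc1 at 5, where the bars are low, and the other genes lie at 1 or 2.

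Total counts were 57306334 to 87361995 per library. Of the 8 genes, 7 passed the filter on low counts and Alk did not. With edgeR's quasi-likelihood test and an adjusted p of 0.05, 1 of the 7 was higher and 5 were lower in Lenti-Klf4, where 72.2% of all 18439 genes tested passed. The genes were chosen on this same contrast, so nothing is read from that count. The groups did not overlap for 6 of the 8 genes, and 69.2% of all genes tested did not overlap. Klf4 itself was at 228 ± 17.9 CPM in Lenti-Klf4 and 87.3 ± 3.82 CPM in Lenti-Ctrl (SD, n = 4 each). CPM here means normalised read counts scaled to the library total after TMM scaling, whereas FPKM, given by the authors, is also scaled by transcript length. Values are given as means ± SD over 4 libraries per group throughout.

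Ptn (ENSMUSG00000029838, chromosome 6, 36691864 to 36787155, minus strand, GRCm39) was an abundant transcript in all Lenti-Klf4 libraries and had no counts in any Lenti-Ctrl library. The Lenti-Klf4 libraries held 20711, 13141, 13304 and 14010 counts, or 236, 211, 202 and 217 CPM, and the 4 Lenti-Ctrl libraries 0 counts each. The Lenti-Klf4 libraries were close to one another and far above the Lenti-Ctrl libraries. A count of 0 allows up to 0.0121 CPM over the Lenti-Ctrl group (3 counts over the group), so that Ptn was at least 18028-fold higher in Lenti-Klf4. The floor, like the interval given for Alk, reflects counting error alone, and PCR copies are not separate molecules. The spread in Lenti-Klf4 was a coefficient of variation of 6.52%, where counting alone gives 0.809%. Per length, Ptn stood at 62.7 ± 3.71 FPKM in Lenti-Klf4, above 96.3% of the genes tested. Of 193 tested genes with no counts in Lenti-Ctrl, Ptn was the most abundant in Lenti-Klf4 by CPM and by FPKM. Conversely, 38 tested genes had no counts in Lenti-Klf4. The 193 genes passed the filter through Lenti-Klf4 alone and Ptn was chosen on this contrast, so its rank is a description only.

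Mdk (ENSMUSG00000027239, chromosome 2, 91760150 to 91762125, minus strand) did not share that pattern. Its level was 1.89, 3.30, 2.65 and 2.28 CPM in the Lenti-Klf4 libraries and 1.81, 1.57, 3.11 and 2.41 CPM in the Lenti-Ctrl libraries. The groups overlapped throughout, and the spread within a group was wide, with coefficients of variation of 23.6% in Lenti-Klf4 and 30.9% in Lenti-Ctrl against 7.60% and 8.63% from counting. The log2 fold change was 0.18 (SE 0.255), with a 95% interval of -0.32 to 0.69, which leaves room for a modest difference either way. In FPKM, the transcript of Ptn exceeded that of Mdk 24.9- to 48.6-fold across the Lenti-Klf4 libraries. Ptn made up 96.1 to 98.0% of the summed FPKM of both ligands in Lenti-Klf4 and 0% in every Lenti-Ctrl library.

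**Figure D2:**
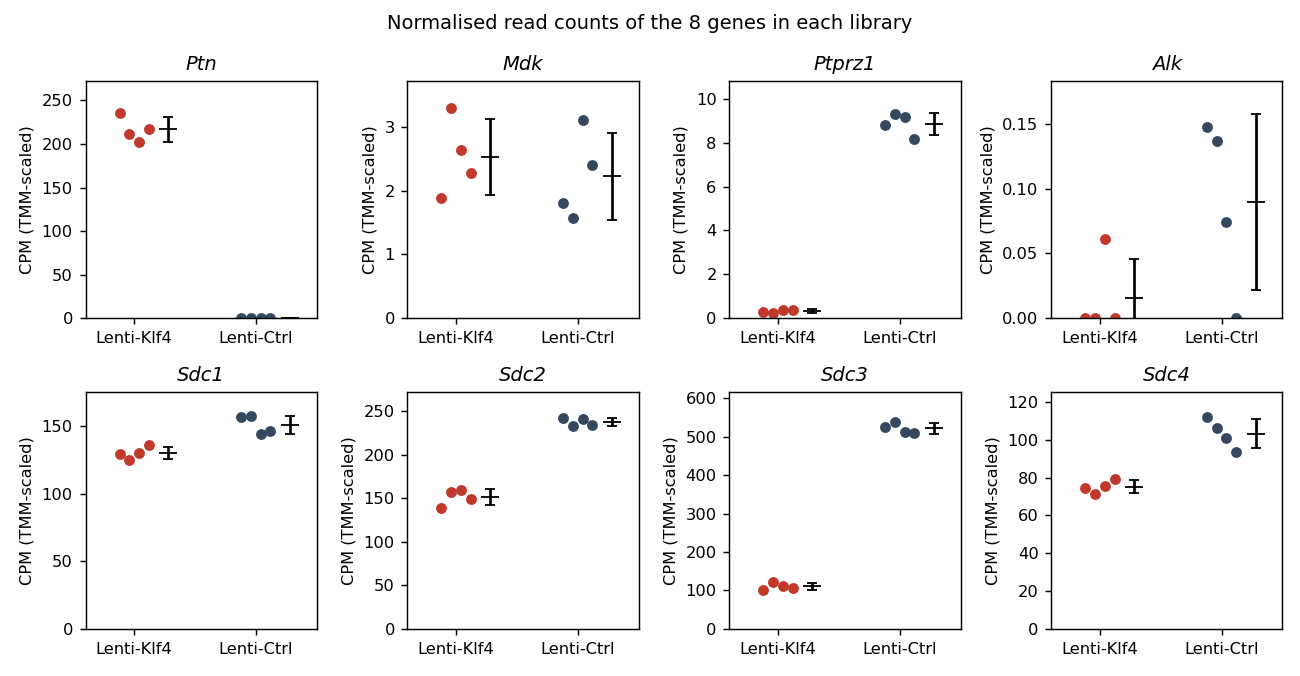
TMM-scaled CPM (y axes, from 0, each panel on its own scale) of the 8 genes in the 4 Lenti-Klf4 and the 4 Lenti-Ctrl libraries, each point a library and the bar the mean ± SD. Ptn is at 202 to 236 CPM in Lenti-Klf4 and at 0 in Lenti-Ctrl, Mdk overlaps between groups, and Ptprz1 and Sdc3 lie far lower in Lenti-Klf4.

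Transcripts of the signalling receptors were scarce in both groups. Ptprz1 (ENSMUSG00000068748, chromosome 6, 22875501 to 23052915, plus strand) had 24, 15, 26 and 25 counts in Lenti-Klf4 and 714, 545, 492 and 444 counts in Lenti-Ctrl. In CPM these were 0.273, 0.241, 0.396 and 0.388 in Lenti-Klf4 and 8.78, 9.32, 9.17 and 8.17 in Lenti-Ctrl. Every Lenti-Klf4 library was below every Lenti-Ctrl library, with a mean 27.3-fold lower and a log2 fold change of -4.77 (SE 0.192). Per length, Ptprz1 reached 0.0213 ± 0.00461 FPKM in Lenti-Klf4 and 0.534 ± 0.0289 FPKM in Lenti-Ctrl, above 1.75% and 27.0% of tested genes. The table lists 6 transcripts for Ptprz1, and gene counts do not tell its long and short receptor forms from its secreted form. On the log2(FPKM + 1) scale the difference was -0.59, since the added value exceeds both levels. Alk (ENSMUSG00000055471, chromosome 17, 72175967 to 72911302, minus strand) had 0, 0, 4 and 0 counts in Lenti-Klf4 and 12, 8, 4 and 0 counts in Lenti-Ctrl. The ratio of the summed counts, 4 in Lenti-Klf4 and 24 in Lenti-Ctrl, was 0.147 after scaling, with an exact 95% binomial interval of 0.0372 to 0.429 for counting error. Each Alk count above 0 was a multiple of 4, so the counts may not be separate molecules and this interval may be too narrow. The libraries overlapped, and no Alk library exceeded 0.148 CPM.

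The syndecans were all abundant, and they differed in how far they moved. Sdc3 (ENSMUSG00000025743, chromosome 4, 130519848 to 130553630, plus strand), best known from neurons and muscle and also found on macrophages, showed the largest difference. It was at 102, 122, 111 and 107 CPM in Lenti-Klf4 and at 526, 539, 512 and 509 CPM in Lenti-Ctrl. All Lenti-Klf4 libraries were far below all Lenti-Ctrl libraries, 4.71-fold by the means (log2 fold change -2.24, SE 0.0502). Sdc2 (ENSMUSG00000022261, chromosome 15, 32920869 to 33035081, plus strand), the syndecan typical of mesenchymal cells, was at 139, 157, 159 and 149 CPM in Lenti-Klf4 and 243, 234, 241 and 234 CPM in Lenti-Ctrl. The groups were apart here too, by 1.57-fold (log2 fold change -0.65, SE 0.0417). Sdc4 (ENSMUSG00000017009, chromosome 2, 164266167 to 164285807, minus strand), which sits in focal adhesions, was at 74.6, 71.3, 75.4 and 79.4 CPM in Lenti-Klf4 and 112, 106, 101 and 93.6 CPM in Lenti-Ctrl. Its groups did not overlap either, with a smaller log2 fold change of -0.46 (SE 0.0544).

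Sdc1 (ENSMUSG00000020592, chromosome 12, 8821323 to 8843715, plus strand), which is typical of epithelia and plasma cells and is a lipoprotein receptor on hepatocytes, showed the smallest difference of the family. It was at 129, 125, 130 and 136 CPM in Lenti-Klf4 and 157, 157, 144 and 146 CPM in Lenti-Ctrl, a log2 fold change of -0.22 (SE 0.0397). The groups were apart in CPM, but this rests on the scaling. With library totals alone the log2 fold change was -0.02, and in FPKM the groups overlapped at 32.8 to 35.6 in Lenti-Klf4 and 32.9 to 35.5 in Lenti-Ctrl. Scaling by library totals alone moved the median gene by 0.19 on the log2 scale and gave -2.04 for Sdc3, -0.46 for Sdc2 and -0.26 for Sdc4, so that these kept their direction. The authors' deposited table gave log2 fold changes of -2.32 for Sdc3, -0.73 for Sdc2, -0.54 for Sdc4, -0.30 for Sdc1 and 0.10 for Mdk. Ptn, Ptprz1 and Alk had no row in that table as used here.

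Summed over the 4 syndecans, FPKM was 124 ± 4.40 in Lenti-Klf4 and 203 ± 4.62 in Lenti-Ctrl. Sdc3 made up 14.8 ± 0.988% of that sum in Lenti-Klf4 and 37.1 ± 0.587% in Lenti-Ctrl. Sdc2 made up 34.3 ± 1.33% in Lenti-Klf4 and 28.7 ± 0.840% in Lenti-Ctrl, and Sdc1 27.3 ± 1.05% in Lenti-Klf4 and 16.9 ± 0.379% in Lenti-Ctrl. Sdc4 made up 23.6 ± 1.10% in Lenti-Klf4 and 17.3 ± 0.803% in Lenti-Ctrl. In Lenti-Klf4 Sdc3 had the smallest share of the family and in Lenti-Ctrl the largest, with no overlap between libraries in any of the 4 shares. The shares are parts of the same sum, so a smaller share of Sdc3 raises the others without a rise in their levels. Mean FPKM in Lenti-Klf4 and Lenti-Ctrl was 42.6 and 58.4 for Sdc2, 29.3 and 35.1 for Sdc4, and 33.9 and 34.3 for Sdc1.

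**Figure D3:**
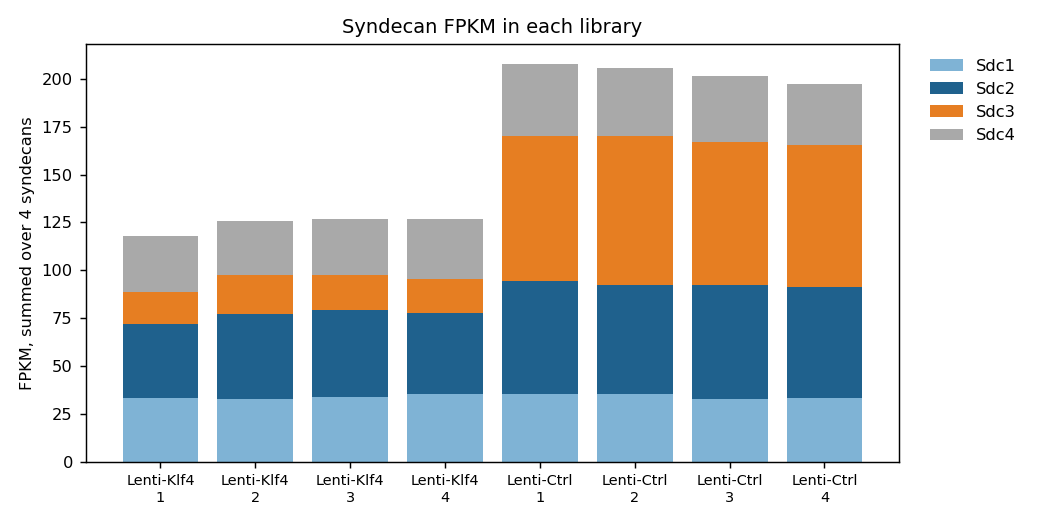
Authors' FPKM of Sdc1, Sdc2, Sdc3 and Sdc4 (y axis, stacked from 0) in each Lenti-Klf4 and Lenti-Ctrl library. The sum lies at 118 to 127 FPKM in Lenti-Klf4 and 197 to 208 FPKM in Lenti-Ctrl, and the Sdc3 segment accounts for most of the gap.

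The order of levels per length differed between the groups. In Lenti-Klf4 it was Ptn (62.7 FPKM), Sdc2 (42.6), Sdc1 (33.9), Sdc4 (29.3), Sdc3 (18.4), Mdk (1.88), Ptprz1 (0.0213) and Alk (0.00193), and the ranges of neighbours in this order did not overlap. In Lenti-Ctrl it was Sdc3 (75.4 FPKM), Sdc2 (58.4), Sdc4 (35.1), Sdc1 (34.3), Mdk (1.44), Ptprz1 (0.534), Alk (0.00925) and Ptn at 0. Sdc4 and Sdc1 overlapped there, at 32.1 to 37.8 and 32.9 to 35.5 FPKM, and so did Alk and Ptn, since 1 Lenti-Ctrl library had no Alk counts.

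The genes most like each member were found by the root mean square difference of log2(FPKM + 1) over the 8 libraries. Nearest to Ptn were Prl2c3 (0.389), at 54.5 ± 1.82 FPKM in Lenti-Klf4 and 0.409 ± 0.167 FPKM in Lenti-Ctrl, then Cxcl5 (0.443), Ifi202b (0.479), Cdsn (0.517) and Pcna-ps2 (0.597). Prl2c3, Ifi202b and Pcna-ps2 have close copies in the genome, so their shares of reads are uncertain. Ifi202b was at 99.4 ± 9.49 FPKM in Lenti-Klf4 and 0.0878 ± 0.102 FPKM in Lenti-Ctrl. Whether the mice or cells of the groups differed in anything besides the virus was not tested. Nearest to Mdk were Sesn3, Pigb and Akap7 (0.180 to 0.190), and nearest to Ptprz1 were Tal1, Coro2a and Rims3 (0.0363 to 0.0394), all with group means below 1 FPKM. Sdc3 was closest to Ccl6 (0.122), at 19.9 ± 3.35 FPKM in Lenti-Klf4 and 75.6 ± 3.52 FPKM in Lenti-Ctrl, then to Akap12 and Fermt2. Sdc2 was closest to Pdpn (0.0643) and Arpc4 (0.0804), Sdc1 to Ap2a2, Dda1 and Sdhb (0.0466 to 0.0628) and Sdc4 to Tatdn2, Galnt2 and Yipf3 (0.0698 to 0.0785).

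Markers of cell types were read in the same libraries. All 12 macrophage and leukocyte markers fell, with a summed level of 162 to 226 CPM in Lenti-Klf4 and 5101 to 5494 CPM in Lenti-Ctrl, and Clec4f, a Kupffer cell marker, was at 0 in Lenti-Klf4. The 8 endothelial markers also all fell, at 28.8 to 37.6 CPM in Lenti-Klf4 and 378 to 385 CPM in Lenti-Ctrl. Of 8 fibroblast markers 7 passed as lower and 1, Thy1, as higher, with sums of 8114 to 9680 CPM in Lenti-Klf4 and 22735 to 23925 CPM in Lenti-Ctrl, none at 0. Among the 7, Pdgfra overlapped between groups, at 128 to 151 CPM in Lenti-Klf4 and 147 to 161 CPM in Lenti-Ctrl, and its mean FPKM was 13.9 in Lenti-Klf4 and 13.5 in Lenti-Ctrl, so that its direction rests on the scaling. The 6 Schwann and glial markers summed to 2.80 to 3.22 CPM in Lenti-Klf4 and 2.50 to 4.47 CPM in Lenti-Ctrl, and none was at 0. Clec3b had 73 counts over the Lenti-Klf4 libraries and 4 over the Lenti-Ctrl libraries, or 0.280 ± 0.174 CPM and 0.0171 ± 0.0342 CPM. It was thus near the floor in both groups, did not pass the filter on low counts, and its groups overlapped. In these bulk libraries fewer cells of a type and less RNA per cell cannot be told apart. The part of macrophages and endothelial cells in the levels of Sdc3 and Ptprz1 was not tested.

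**Figure D4:**
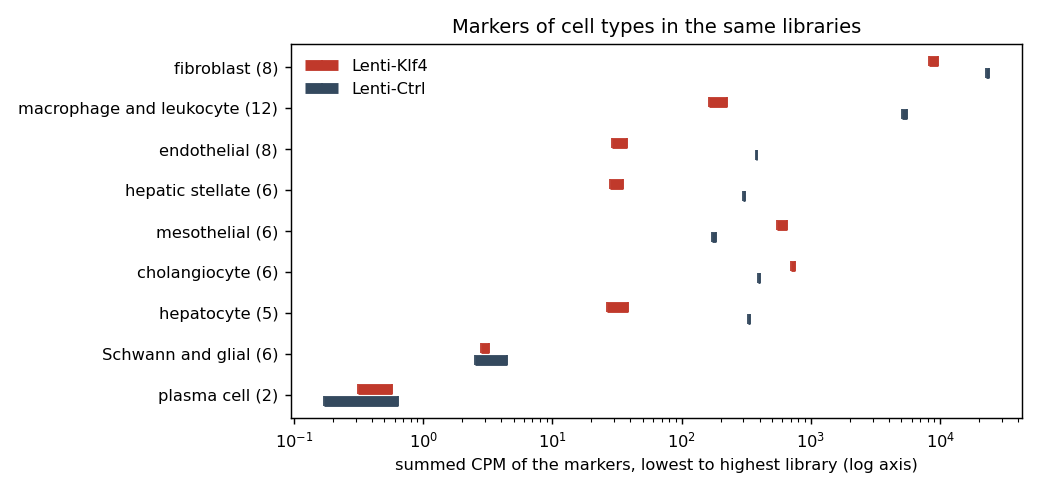
Summed CPM of the markers of each cell type (x axis, log scale), each bar running from the lowest to the highest of the 4 libraries, Lenti-Klf4 above Lenti-Ctrl, with the number of markers in brackets. Macrophage and leukocyte markers lie at 162 to 226 CPM in Lenti-Klf4 and 5101 to 5494 CPM in Lenti-Ctrl, and Schwann and glial markers lie below 4.5 CPM in both groups.

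Around these genes, 7 lists held 83 other genes that bind, modify or act downstream of them, of which 77 were tested. By edgeR's quasi-likelihood test 17 were higher and 49 lower in Lenti-Klf4 and 11 did not pass, with a median log2 fold change of -0.43, where of all genes tested 37.5% were higher and 34.7% lower with a median of 0.03. With library totals alone 25 were higher and 44 lower. The macrophage and leukocyte markers named above moved in the same direction as most of these genes, and their part was not tested.

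Of 14 tested other receptors of the ligands, 4 rose, 8 fell and 2 did not pass (median -0.31). Ncl, encoding nucleolin, which binds both ligands at the cell surface besides its work in ribosome assembly, rose to 1289 ± 43.0 CPM in Lenti-Klf4, against 593 ± 6.52 CPM in Lenti-Ctrl (log2 fold change 1.12, SE 0.0268, adjusted p = 2.53e-12). Itgb1, the shared integrin beta subunit and the most abundant of the list, fell to 1129 ± 20.4 CPM, against 3208 ± 78.1 CPM in Lenti-Ctrl (log2 fold change -1.51). Itga4, an integrin alpha subunit that is also a leukocyte gene, fell by 4.50 on the log2 scale, to 1.97 ± 0.585 CPM, against 43.8 ± 3.14 CPM in Lenti-Ctrl. Lrp1, an endocytic receptor of midkine, stood at 1202 ± 82.6 CPM in Lenti-Klf4 and 3121 ± 88.1 CPM in Lenti-Ctrl (log2 fold change -1.38). Nrp1, a co-receptor, was at 69.9 ± 2.60 CPM in Lenti-Klf4 and 73.7 ± 2.11 CPM in Lenti-Ctrl (adjusted p = 0.107). RLE size factors (adjusted p = 0.0346), a filter of 1 CPM (0.0147) and DESeq2 (0.0375) passed Nrp1 as lower. Library totals alone passed it as higher (log2 fold change 0.12, adjusted p = 0.0158), so that its direction rests on the scaling. Lrp1, chosen after its values were seen, is outside the rule for named genes.

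Among relatives and other ligands of ALK and PTPRZ1, 4 of 5 tested genes fell, none rose and 1 did not pass (median -2.10). Tnc, encoding the matrix protein tenascin-C, fell to 92.3 ± 11.9 CPM in Lenti-Klf4, against 2285 ± 4.97 CPM in Lenti-Ctrl (log2 fold change -4.63, SE 0.0823, adjusted p = 2.4e-13). Ptprg, the closest relative of Ptprz1, fell to 41.2 ± 6.56 CPM in Lenti-Klf4, against 177 ± 7.26 CPM in Lenti-Ctrl, and Alkal1, encoding a ligand of ALK, was at 0.0114 ± 0.0228 CPM in Lenti-Klf4 and 0.594 ± 0.218 CPM in Lenti-Ctrl. Both were chosen after their values were seen. Tnr, encoding tenascin-R, was below 0.5 CPM in both groups on average (adjusted p = 0.498).

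The PTPRZ1 substrates and ALK adaptors went both ways, with 4 of 11 higher, 6 lower and 1 not past (median -0.07). Plcg1, a phospholipase bound by active ALK, stood at 119 ± 2.57 CPM in Lenti-Klf4 and 86.5 ± 4.60 CPM in Lenti-Ctrl (log2 fold change 0.47, adjusted p = 5.18e-07). Grb2, an adaptor of receptor kinases, fell by 0.84 on the log2 scale, to 53.4 ± 1.69 CPM, against 95.5 ± 1.61 CPM in Lenti-Ctrl. Ctnnb1, encoding beta-catenin, passed as lower with TMM scaling (log2 fold change -0.07, adjusted p = 0.0148), while library totals alone turned its sign (0.12, adjusted p = 0.000244), so that its direction rests on the scaling. Arhgap35, a regulator of small GTPases, was at 143 ± 3.96 CPM in Lenti-Klf4 and 136 ± 5.47 CPM in Lenti-Ctrl (adjusted p = 0.0883). Scaling by library totals put Arhgap35 past the threshold at a log2 fold change of 0.27 (adjusted p = 3.0e-05), and leaving out Lenti-Ctrl replicate 1 did so too (0.0979, adjusted p = 0.0362).

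Of 15 genes whose products bind syndecan tails or act with them, 3 rose, 10 fell and 2 did not pass (median -0.37). Ezr, encoding ezrin, which joins membrane proteins to actin, rose to 208 ± 5.63 CPM in Lenti-Klf4, against 69.3 ± 4.58 CPM in Lenti-Ctrl (log2 fold change 1.58, SE 0.0466, adjusted p = 1.5e-11). Actn1, encoding alpha-actinin, which binds the tail of syndecan-4 and crosslinks actin, fell to 480 ± 13.4 CPM, against 1747 ± 26.8 CPM in Lenti-Ctrl (log2 fold change -1.86). Cask, a scaffold that binds the shared end of syndecan tails and was chosen after its values were seen, rose to 166 ± 9.72 CPM, against 60.1 ± 3.98 CPM in Lenti-Ctrl. Gipc1, another protein that binds syndecan-4, was at 109 ± 4.80 CPM in Lenti-Klf4 and 112 ± 3.84 CPM in Lenti-Ctrl (adjusted p = 0.412). Library totals alone passed Gipc1 as higher (log2 fold change 0.16, adjusted p = 0.00285).

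Of 9 tested proteases that release syndecan ectodomains, with heparanase and the inhibitor Timp3, 2 rose, 6 fell and 1 did not pass (median -0.75). Timp3 was the most abundant and fell to 1171 ± 159 CPM in Lenti-Klf4, against 4268 ± 64.1 CPM in Lenti-Ctrl (log2 fold change -1.87, SE 0.0779, adjusted p = 3.5e-10). Adamts1, a secreted protease, rose to 135 ± 3.09 CPM, against 80.9 ± 2.27 CPM in Lenti-Ctrl (log2 fold change 0.74). Adam10 and Adam17, membrane proteases that shed syndecans and were chosen after their values were seen, had log2 fold changes of -0.75 and -0.34. The call of Adam17 was lost with limma on log2(FPKM + 1) over all genes (log2 difference -0.13, adjusted p = 0.0697). Mmp3 was at 374 ± 40.1 CPM in Lenti-Klf4 and 361 ± 4.56 CPM in Lenti-Ctrl (adjusted p = 0.488). Leaving out Lenti-Klf4 replicate 1 put Mmp3 past the threshold (log2 fold change 0.11, adjusted p = 0.00431), as did library totals alone (0.25, adjusted p = 0.0043).

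Enzymes that build and trim heparan sulfate chains were mostly lower, with 12 of 17 lower, 2 higher and 3 not past (median -0.92). Xylt1, one of the xylosyltransferases that start the chain, fell to 1.47 to 3.31 CPM in Lenti-Klf4, against 20.6 to 24.1 CPM in Lenti-Ctrl (log2 fold change -3.35, SE 0.205, adjusted p = 1.3e-08). Ext1, a subunit of the polymerase and the most abundant of the list, fell to 129 ± 3.55 CPM, against 415 ± 8.47 CPM in Lenti-Ctrl (log2 fold change -1.69). Sulf1, which removes sulfate from finished chains and was chosen after its values were seen, fell by 1.85 on the log2 scale. B3gat3, which completes the linker, rose to 35.5 ± 1.37 CPM, against 26.0 ± 2.11 CPM in Lenti-Ctrl. Hs2st1, a sulfotransferase, was at 86.6 ± 2.05 CPM in Lenti-Klf4 and 92.4 ± 5.39 CPM in Lenti-Ctrl (adjusted p = 0.0762). It passed as lower without Lenti-Klf4 replicate 2 (adjusted p = 0.0313) or without Lenti-Ctrl replicate 2 (0.0104). RLE size factors (adjusted p = 0.0273), a filter of 1 CPM (0.0117) and DESeq2 (0.0203) also passed Hs2st1 as lower. Library totals alone turned its sign (log2 fold change 0.10, adjusted p = 0.0612).

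Other heparan sulfate proteoglycans of the cell surface went both ways, with 2 of 6 tested higher, 3 lower and 1 not past (median -0.17). Tgfbr3, encoding betaglycan, a TGF-beta co-receptor, rose to 170 ± 2.97 CPM in Lenti-Klf4, against 33.8 ± 0.435 CPM in Lenti-Ctrl (log2 fold change 2.34, SE 0.0328, adjusted p = 4.31e-14). Gpc1, encoding glypican-1 and chosen after its values were seen, rose to 126.0 ± 7.28 CPM, against 58.7 ± 2.23 CPM in Lenti-Ctrl. Gpc4, the most abundant glypican here by FPKM, fell by 0.33 on the log2 scale, and Gpc6 was at 29.3 ± 3.61 CPM in Lenti-Klf4 and 29.4 ± 1.18 CPM in Lenti-Ctrl (adjusted p = 0.953).

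**Figure D5:**
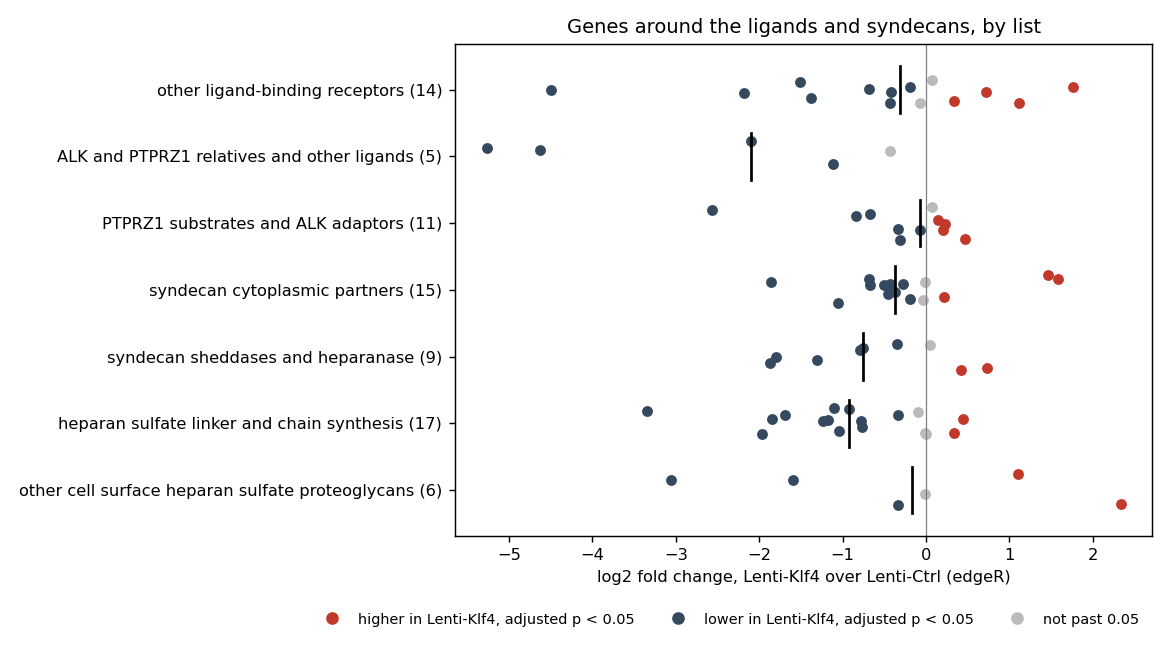
Log2 fold change, Lenti-Klf4 over Lenti-Ctrl, from edgeR (x axis) for the 77 tested genes of the 7 lists (rows, with the number tested in brackets), each point a gene coloured by its call, with a black line at the median. Medians run from -2.10 to -0.07, and Tgfbr3 lies farthest to the right at 2.34.

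The nearest tested gene on each side of the 8 genes was read as well. Of 16 such neighbours, 2 were higher, 7 lower and 7 did not pass. Of all genes tested, 37.5% were higher and 34.7% lower, or 72.2% in either direction. Beside Ptn, Chrm2, 186515 bases away, was at 0.247 ± 0.291 CPM in Lenti-Klf4 and 0.211 ± 0.0546 CPM in Lenti-Ctrl (adjusted p = 0.877), and ENSMUSG00000121741 on the other side, 146630 bases away, was at 0.357 ± 0.0889 CPM in Lenti-Klf4 and 0.181 ± 0.106 CPM in Lenti-Ctrl (adjusted p = 0.153). Neither had a level near that of Ptn. For ENSMUSG00000121741 the groups did not overlap, at 0.285 to 0.482 CPM in Lenti-Klf4 and 0.0373 to 0.274 CPM in Lenti-Ctrl. It passed as higher with limma on log2(FPKM + 1) over tested genes (adjusted p = 0.0391) and over all genes (0.0280). Limma on log2(FPKM + 0.1) passed it too (adjusted p = 0.0255). Beside Sdc3, Laptm5, a gene of blood cells 86806 bases away, fell to 14.7 ± 1.70 CPM in Lenti-Klf4, against 259 ± 5.12 CPM in Lenti-Ctrl. Beside Ptprz1, Aass fell by 2.88 on the log2 scale from a low level, at 0.165 ± 0.122 CPM in Lenti-Klf4 and 1.23 ± 0.291 CPM in Lenti-Ctrl, and Gm8930 did not pass (adjusted p = 0.31) except without Lenti-Ctrl replicate 3 (0.0189) or with limma on log2(FPKM + 0.1) (0.0477). Sdc2 lay between Gm32618 and Cpq, both lower, with log2 fold changes of -0.72 and -0.41. Sdc1 lay between Pum2, which was higher (0.25), and Laptm4a (0.06, adjusted p = 0.0503). Sdc4 lay between Rbpjl, which was at 0.342 ± 0.127 CPM in Lenti-Klf4 with no counts in Lenti-Ctrl, and Sys1, which fell by 0.42 on the log2 scale. Dgkz beside Mdk fell to 73.6 ± 2.43 CPM in Lenti-Klf4, against 107 ± 3.03 CPM in Lenti-Ctrl, and Clip4 beside Alk to 2.06 ± 0.883 CPM, against 4.14 ± 0.948 CPM in Lenti-Ctrl, while Chrm4 and Ypel5 did not pass (adjusted p = 0.246 and 0.869). The groups overlapped for Clip4, at 1.51 to 3.38 CPM in Lenti-Klf4 and 2.93 to 4.96 CPM in Lenti-Ctrl, and its call was lost with limma on log2(FPKM + 1) over all genes (log2 difference -0.19, adjusted p = 0.0574). Chrm4 passed as lower without Lenti-Klf4 replicate 2 (adjusted p = 0.0478). Library totals alone passed Laptm4a (log2 fold change 0.26, adjusted p = 3.8e-06) and Ypel5 (0.20, adjusted p = 0.00244) as higher.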

How the data were processed

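RNA of 8 libraries was sequenced. The authors deposited raw counts per gene and FPKM values in a table with 1 column per library. Per the submitters' processing notes, cutadapt 1.9, HISAT2 2.2.1, StringTie 2.1.6 and DESeq2 were used with build GRCm39; the counting tool and its strand handling were not stated in the labels. The authors' second table holds, per the file headers, log2 fold changes and adjusted p-values. Counts were analysed with edgeR 4.0.16 (filterByExpr, TMM, quasi-likelihood F test, group as the only term) in R 4.3.3. Benjamini-Hochberg adjustment was over 18439 genes, with a threshold of 0.05. The test was checked on simulated data in which a small share of genes changed. That check does not cover a contrast in which 72.2% of genes passed, as here. Where a group had no counts, its fold was bounded with a floor of 3 counts over the group. Alternatives used DESeq2 1.42.0, limma 3.58.1 and other scalings and filters. Deviations from the group means correlated at -0.00542 to 0.022 between libraries with the same number and at -0.032 to 0.0172 between other pairs. All of these values were small, so the fit was not paired. The members, lists and tests were chosen with earlier results of these data known. Named genes were the members, their neighbours and, per list, the most abundant gene, the largest rise and fall among called genes of at least 1 FPKM, and the most abundant gene not past the threshold; the 5 genes most like Ptn and 3 for each other member; and genes chosen later, as described. Some genes that this rule names are not reported here.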

Additional observations from a re-analysis of the deposited data

Results flagged for a closer look

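A library stood apart from the other 3 of its group in 8 of the 106 groups of 4 examined, and chance flags about 1 in 20. Alk was at 0.0609 CPM in Lenti-Klf4 replicate 3 and 0 in the others, which is 4 counts. Alkal1 was at 0.0455 CPM in Lenti-Klf4 replicate 1 and 0 in the others. A library that alone has counts is always flagged, so the chance rate does not apply to Alk and Alkal1. In Lenti-Klf4 replicate 1, Ptprg was at 31.5 CPM, with 43.5 to 45.9 CPM in the others, and Sulf1 at 90.3 CPM, with 118 to 122 CPM in the others. This library also stood apart over many genes. Its counts differed from those of the other Lenti-Klf4 libraries with a chi-square per degree of freedom of 15.8 to 20.8. Among those others it was 9.27 to 10.4. Lenti-Klf4 replicate 1 also had the most counts of its group, and the cause was not tested. Grb2 was at 97.9 CPM in Lenti-Ctrl replicate 1 and at 94.5 to 95.0 CPM in the others. Clip4 was at 3.38 CPM in Lenti-Klf4 replicate 2 and at 1.51 to 1.80 CPM in the others. Ypel5 was at 94.4 CPM in Lenti-Ctrl replicate 2 and at 86.2 to 87.4 CPM in the others. Pum2 was at 210.2 CPM in Lenti-Klf4 replicate 2 and at 222 to 224 CPM in the others. Ptn, Mdk, Ptprz1 and the syndecans had no such library.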

How the results depend on the processing

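The log2 fold changes of Ptprz1, Sdc1, Sdc2, Sdc3 and Sdc4 kept their sign under all 17 alternatives, and Sdc1 came closest to 0 (-0.02). Over the 8 fits that leave out 1 library, they ranged from -4.88 to -4.69 for Ptprz1, -2.31 to -2.21 for Sdc3, -0.70 to -0.63 for Sdc2, -0.51 to -0.42 for Sdc4 and -0.24 to -0.20 for Sdc1. Mdk ranged from 0.00551 to 0.39. The replicate block gave 6730 genes higher and 6188 lower, against 6914 and 6393 without it, and 17 pathway genes higher and 49 lower, as without it. Limma on log2(FPKM + 0.1) passed 14 of the neighbour genes, against 9 in the main analysis.

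Of 45 pathway and neighbour genes followed, 37 kept their direction under all alternatives and 30 also their call. Rbpjl, with no counts in Lenti-Ctrl, had no log2 fold change to follow. The other 8 genes had log2 fold changes near 0 or low counts. Under library totals alone, and under limma on log2(FPKM + 1) over tested genes, on log2(FPKM + 0.1) and on log2(FPKM + 1) over all genes, the sign turned for Nrp1 (0.12, 0.11, 0.12 and 0.11), Ctnnb1 (0.12, 0.13, 0.13 and 0.13), Gipc1 (0.16, 0.16, 0.16 and 0.16), Hs2st1 (0.10, 0.0975, 0.11 and 0.0975) and Gpc6 (0.19, 0.15, 0.18 and 0.15). Library totals alone moved the median gene by 0.19 and log2(FPKM + 0.1) by 0.17. Gpc6 was also at 0.018 with no filter and ranged from -0.0678 to 0.0473 with 1 library left out. Under RLE size factors, a filter of 1 CPM and DESeq2, Ypel5 was at -0.0186, -0.0345 and -0.0186. With 1 library left out, Ypel5 ranged from -0.0524 to 0.0396, Mmp3 from -0.0219 to 0.11 and Chrm2 from -0.63 to 0.62. Chrm2 was at -1.04 under the replicate block. The causes were not tested. Depth limits Alk and the neighbours under 1 CPM.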

Other observations

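Markers of lining cells moved in both directions in the same libraries. Of 6 mesothelial markers, 4 rose and 2 fell, with summed levels of 549 to 651 CPM in Lenti-Klf4 and 172 to 184 CPM in Lenti-Ctrl. Gpm6a, encoding a membrane glycoprotein, was at 34.9 ± 5.49 CPM in Lenti-Klf4 and 6.27 ± 0.317 CPM in Lenti-Ctrl, while Wt1, a mesothelial transcription factor, was at 5.51 to 7.65 CPM in Lenti-Klf4 and 10.1 to 12.2 CPM in Lenti-Ctrl. Of 6 cholangiocyte markers, 4 rose and 2 did not pass, and Epcam, a defining epithelial marker, was at 0.991 ± 0.230 CPM in Lenti-Klf4 and 1.26 ± 0.113 CPM in Lenti-Ctrl. Of 6 stellate cell markers 5 fell, with sums of 27.7 to 35.1 CPM in Lenti-Klf4 and 298 to 306 CPM in Lenti-Ctrl. Des made up most of the Lenti-Ctrl sum, at 214 ± 2.55 CPM. Lrat did not pass, at 1.95 ± 0.625 CPM in Lenti-Klf4 and 1.71 ± 0.390 CPM in Lenti-Ctrl (edgeR adjusted p = 0.586). Ngfr passed as lower (edgeR adjusted p = 0.0466), but its groups overlapped. The hepatocyte markers summed to 26.5 to 38.4 CPM in Lenti-Klf4 and 328 to 339 CPM in Lenti-Ctrl, most of it Trf and Apob, which both fell. Alb, the defining marker of hepatocytes, rose to 2.98 ± 0.471 CPM in Lenti-Klf4, against 0.271 ± 0.284 CPM in Lenti-Ctrl (adjusted p = 0.000273), and the untested Apoa1 and Ttr had 26 and 20 counts in Lenti-Klf4 and none in Lenti-Ctrl, so that 1 of 3 tested markers rose and 2 fell. The plasma cell markers measured, a cell type also known for Sdc1, summed to 0.310 to 0.569 CPM in Lenti-Klf4 and 0.171 to 0.634 CPM in Lenti-Ctrl. The part of these cells in the levels described was not tested.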
